A study of Mus musculus with 5 samples.

Results

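The genes described here carry glucose through glycolysis to lactate or into the mitochondrion as pyruvate. They were chosen by name: 34 genes for glucose uptake, the glycolytic enzymes, lactate dehydrogenase and its transporters, the enzymes that set fructose 2,6-bisphosphate, and pyruvate entry with its kinases. A probe set, the group of oligonucleotides that reports 1 transcript on the array, was taken as a member when the platform annotation gave it exactly 1 symbol and that symbol was on the list. This gave 30 of the 34 genes, against 18193 genes on the array in all. The expression of Gpi1, Eno1, Pfkfb1 and Mpc2 was not analysed here. Of the 30, Gapdh was read only by 3 control probe sets and is described by its signals. The other 29 had 59 probe sets.

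RNA came from pooled mouse retinas on 5 Affymetrix arrays. The first pair of diabetic pools, replicates 1 and 2, came from 2 mice (4 retinas) apiece, made diabetic with streptozotocin 5 weeks earlier, a toxin to the insulin-producing cells. The last, replicate 3, was made of 6 retinas from 3 mice whose diabetes had been induced experimentally and had lasted 3 to 4 weeks. Each of the 2 control pools held 4 retinas of 2 untreated, age-matched mice with normal blood glucose. The labels used here give no strain, sex or age in weeks, and every value stands for a pool of animals.

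Glycolysis splits glucose into pyruvate in the cytosol and yields a little ATP and NADH. Lactate dehydrogenase turns pyruvate into lactate and regenerates NAD, while the mitochondrial pyruvate carrier and pyruvate dehydrogenase lead pyruvate to the citric acid cycle. The retina is known for making lactate even when oxygen is plentiful. Photoreceptors are the main site of this aerobic glycolysis, and Muller glia and the pigment epithelium are thought to take up and burn part of the lactate.

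Levels are given as log2(signal + 121), where 121 is the 20th percentile of all signals. A gene's level is that of its brightest probe set, and the values of diabetic and of control pools are listed in replicate order. Probe sets differ in how well they hybridise, so levels of different genes are not ranked against each other. Genes were tested when their mean level was in the upper 60%, above 9.70 on this scale. This was met by 27 of the 29 members, and Slc16a7 and Pdk4 lay below it.

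The arrays carried the transcripts of neural retina. All 5 rod genes found on the array were above the filter, as were the 5 Muller glia genes and the 5 ganglion cell genes. Skeletal muscle genes split the pools across the groups: all 15 were highest in diabetic replicate 3 and control replicate 2, with summed signals of 100977 and 65112 there and 6212 to 7016 in the other 3 pools. Summed pigment epithelium signals were 47463 to 73654 in diabetic and 91688 to 137249 in control pools, over 6 genes. In all 5 of these that were tested the difference was negative with an unadjusted limma p under 0.05, against 3.39% of all tested genes with such a p. The adjusted p was 0.999 for each of the 5. Summed melanocyte signals were 13660 to 22144 in 3 pools, diabetic 1 and 3 and control 2, and 2672 and 4685 in the others. Of the marker genes found, 2 of 2 for bipolar cells, 2 of 5 for endothelium and 3 of 5 for microglia passed the filter. None of the 5 lens genes and none of the 3 erythrocyte genes found passed the filter. The ratio of 3' to 5' beta-actin signal, a measure of RNA integrity, was 4.32 in diabetic replicate 2 and 2.01 to 2.71 in the other pools. In whole retina, fewer cells of a type and less RNA per cell cannot be told apart.

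The transcripts of glycolysis and of lactate and pyruvate handling differed little between diabetic and control retina. None of the 27 tested members passed the threshold of 0.05 (adjusted p from limma 0.999 for each, by Benjamini-Hochberg over 10916 genes), and 0% of all tested genes did. Pfkfb3 alone reached an unadjusted p under 0.05, or 1 of 27, against 370 of all tested genes, or 3.39%. The median difference over the members was 0.01, and over all tested genes it was 0.00602. Members were higher in diabetic pools in 16 of 27 cases, against 51.9% of all tested genes, and the groups did not overlap in 6 of 27, against 18.1%. In 5 of the 27 the groups did not overlap and the diabetic pools were the higher, against 9.99% of all tested genes. Without diabetic replicate 1 the median was -0.00412 and 12 of 27 were higher.

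At the brightest probe set of each gene, the data bounded most of these differences closely. For 24 of the 27 members the 95% interval lay within 0.5 log2 units of 0 on both sides, the exceptions being Pfkfb3, Slc16a3 and Pdk2. This held for 8042 of all 10916 tested genes. On the probe set fit it held for 37 of 50 member probe sets and 11565 of all 20967. The median standard error was 0.08 for the members and 0.12 for all tested genes. Over the 5 arrays, a member's highest and lowest levels lay 0.21 apart at the median, against 0.32 for all tested genes. There were 21 of 27 members with a range under 0.3, or 77.8%, against 44.7% of all tested genes. These are descriptions and were not matched for signal.

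**Figure D1:**
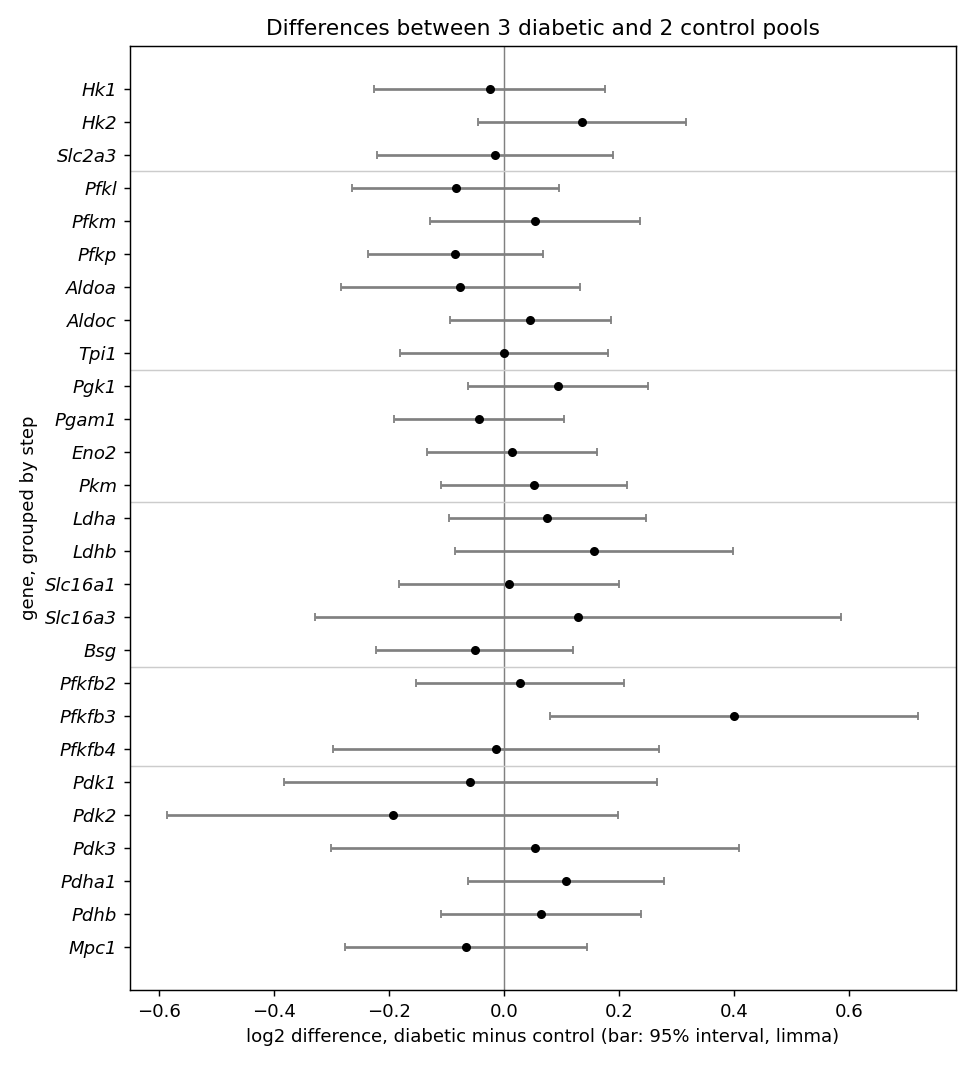
The log2 difference of 27 genes, diabetic minus control pools, on the horizontal axis, with points for the limma estimate (3 diabetic and 2 control arrays) and bars for its 95% interval, and lines between steps. Only the interval of Pfkfb3, from 0.08 to 0.72, lies wholly on one side of 0.

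Of the pools, diabetic replicate 1 held the highest level of 13 of the 27 members, or 48.1%, where it was highest in 19.4% of all tested genes. The median deviation of the members from their own means was 0.06 in that pool and between -0.01 and 0.01 in the other 4. The genes highest in it were spread over the pathway, from Tpi1 and Pgk1 to Ldha, Slc16a1 and Pdk3. That pool had the lowest beta-actin ratio, 2.01, whose part in this was not tested.

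**Figure D2:**
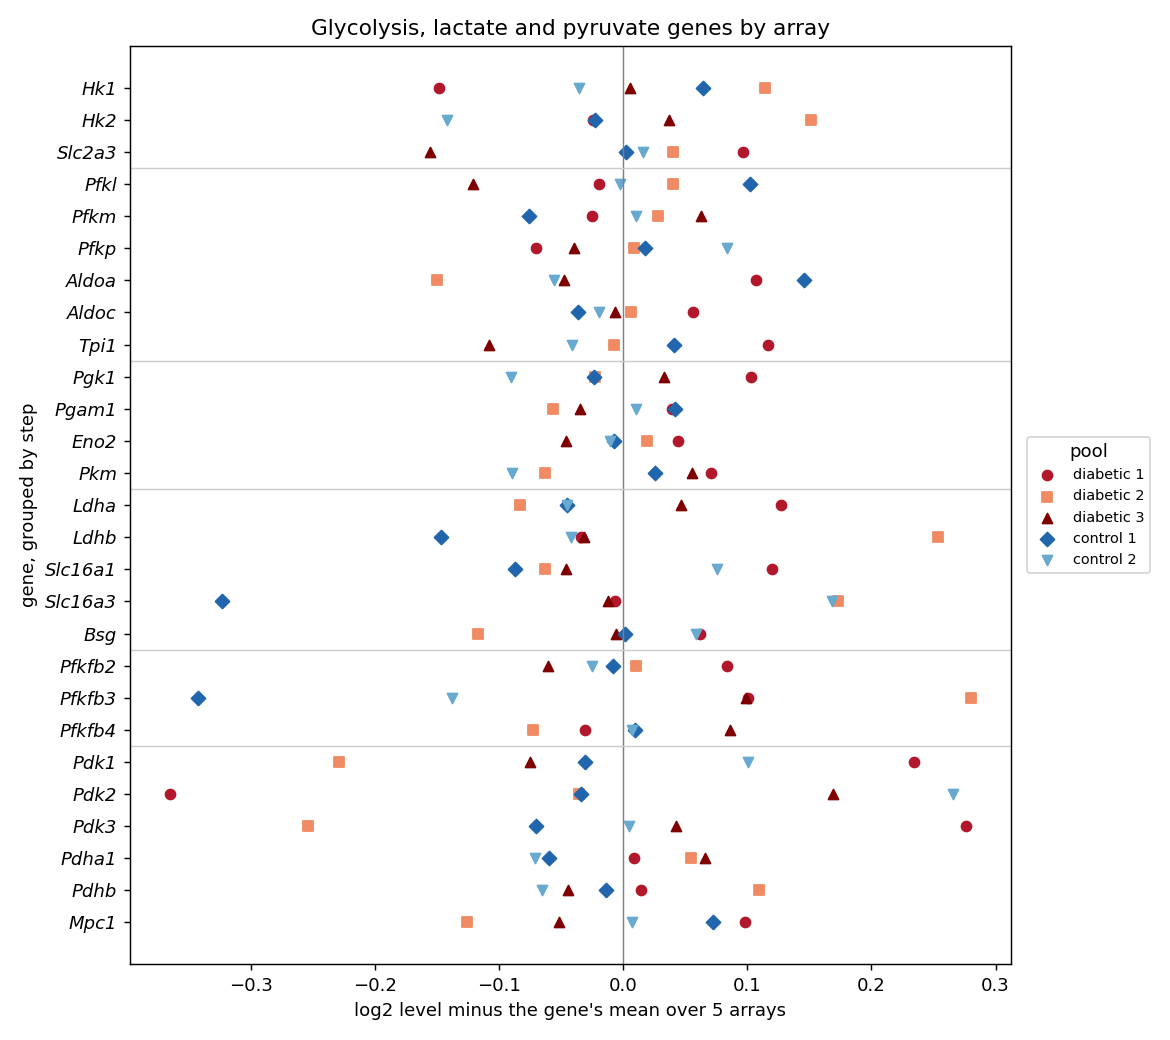
The log2 level of 27 genes in each pool minus the gene's mean over the 5 arrays, in order of step from glucose uptake at the top to pyruvate entry at the bottom. Red and orange mark diabetic and blue control pools, and most genes keep all 5 pools within a range of 0.3.

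Stretches before the start sites of 4 members are printed here: Pfkfb3, which had the smallest p, Pgk1, Ldhb and Ldha, the partner isozyme of Ldhb. All tested probe sets of Pgk1 and of Ldhb had positive differences. This held for Pfkfb2 and Tpi1 too, whose stretches are not printed. The printed stretches are taken from RefSeq (GRCm38.p6). Each run is the 250 bases before a transcription start, and where the table holds several starts of a gene it is the one of lowest coordinate. Pfkfb3 lies at chr2:11502091-11502340 on the minus strand, Pgk1 at chrX:106186850-106187099 on the plus strand, Ldha at chr7:46845554-46845803 on the plus strand and Ldhb at chr6:142507958-142508207 on the minus strand. Capitals mark ACGTG and GCGTG on either strand, the core letters bound by hypoxia-inducible factors.
Pfkfb3: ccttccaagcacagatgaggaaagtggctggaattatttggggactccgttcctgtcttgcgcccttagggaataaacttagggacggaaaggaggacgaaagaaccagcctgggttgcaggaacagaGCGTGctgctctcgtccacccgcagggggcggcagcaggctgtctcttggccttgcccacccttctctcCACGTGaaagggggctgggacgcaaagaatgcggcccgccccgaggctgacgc
Pgk1: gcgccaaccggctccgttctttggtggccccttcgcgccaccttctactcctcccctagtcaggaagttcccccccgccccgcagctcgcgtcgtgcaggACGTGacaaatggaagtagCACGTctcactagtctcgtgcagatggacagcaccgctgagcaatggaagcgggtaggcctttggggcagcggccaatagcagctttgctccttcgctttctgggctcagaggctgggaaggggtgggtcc
Ldha: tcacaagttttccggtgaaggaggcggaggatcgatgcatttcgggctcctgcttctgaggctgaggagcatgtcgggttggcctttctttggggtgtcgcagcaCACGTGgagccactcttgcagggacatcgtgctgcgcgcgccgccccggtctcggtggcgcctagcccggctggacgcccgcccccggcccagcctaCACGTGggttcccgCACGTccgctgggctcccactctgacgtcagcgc
Ldhb: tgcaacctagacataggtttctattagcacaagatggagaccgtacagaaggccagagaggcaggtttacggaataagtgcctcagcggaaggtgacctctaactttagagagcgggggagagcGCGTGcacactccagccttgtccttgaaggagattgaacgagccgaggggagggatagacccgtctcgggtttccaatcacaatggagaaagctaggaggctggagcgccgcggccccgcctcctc

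ACGTG stood 5 times in the Ldha window, counting both strands, and 2 times each in those of Pfkfb3 and Pgk1. The second window of Ldha, not printed, held it 0 times and that of Pfkfb3 once. It did not stand in the Ldhb window, which held GCGTG once. Neither run stood in the Tpi1 window, and the Pfkfb2 window of lowest coordinate held ACGTG once. CACGTG, a palindrome that holds ACGTG on each strand and is the letters of an E-box, stood 2 times before Ldha and once before Pfkfb3. Among the 31 members with an entry, 14 or 45.2% had ACGTG in at least 1 window of 250 bases, against 25.8% of 8881 tested genes with an entry and 18.5% of all 27025 genes. By window the shares were 35.3% of 51 and 21.7% of 11512. GCGTG was in 71.0% of the members by gene and in 51.7% of tested genes, and CACGTG in 19.4% and 10.1%. By window these shares were closer, at 52.9% and 45.4% for GCGTG and 11.8% and 8.29% for CACGTG, and the members had more windows per gene, 51 for 31 against 11512 for 8881. A match is a run of letters and not a binding site. Bsg, Slc2a3 and Slc16a7 had no entry. The 31 members include Gpi1, Eno1, Gapdh, Pfkfb1, Mpc2 and Pdk4, which were not tested and are not among the 8881 tested genes.

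At the first steps, both hexokinases and the neuronal glucose transporter were above the filter in every pool. Slc2a3 encodes GLUT3, a high-affinity transporter of neurons, and its difference was -0.02 (95% interval -0.22 to 0.19). Dim Slc2a3 probe sets below the filter differed by 0.35 and 0.59 with overlapping groups and were not tested. With the mean over the probe sets of Slc2a3, dim ones included, the difference was 0.23. Hexokinases phosphorylate glucose and so hold it in the cell. Hk2, the isozyme that photoreceptors are known to use, was at 15.20, 15.38 and 15.26 in diabetic and at 15.20 and 15.09 in control pools. Diabetic replicate 1 was level with control replicate 1, so the groups overlapped. The Hk2 difference was 0.14 (SE 0.08, 95% interval -0.04 to 0.32), or 1.10-fold, and stayed between 0.08 and 0.20 with single arrays left out. Hk1, the isozyme of most neurons, differed by -0.02 (-0.22 to 0.18).

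Within each array, the Hk2 level minus the Hk1 level asks whether the isozymes shifted unequally. It was -0.08, -0.17 and -0.18 in the diabetic and -0.29 and -0.31 in the control pools, so every diabetic pool was above both controls. The balance differed by 0.16 (exact permutation test, two-sided p = 0.1, adjusted p = 0.9 over 9 isozyme pairs). That p is the smallest that 10 arrangements of the 5 arrays allow, so no pair could pass 0.05. The shift stayed between 0.13 and 0.18 with single arrays left out and was 0.17 with the mean over the probe sets of each gene. With that mean the groups overlapped, as diabetic replicate 1 was not above control replicate 1. The second Hk1 probe set was at 15.07, 14.54 and 14.95 in diabetic and 14.86 and 14.92 in control pools, lowest in diabetic replicate 2. None of the other 8 pairs had groups that did not overlap. This 1 of 9 stands beside 18.1% of all tested genes, a share taken over levels and not over balances.

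In upper glycolysis, all 3 phosphofructokinase subunits and both aldolases were above the filter in every pool. Phosphofructokinase commits the sugar to glycolysis, and its subunits are named for liver (Pfkl), muscle (Pfkm) and platelet (Pfkp). Pfkp was at 15.24, 15.32 and 15.27 in diabetic and at 15.33 and 15.39 in control pools. Every diabetic pool was below both controls, the nearest only narrowly, and the difference was -0.08 (95% interval -0.24 to 0.07). All 3 probe sets of Pfkp had negative differences, from -0.13 to -0.08. The groups did not overlap in 2 of them, against 17.2% of all tested probe sets. The overlapping probe set differed by 0.29 without diabetic replicate 2. These probe sets read the same RNA and are not replicates. Pfkl differed by -0.08 (-0.26 to 0.10), but 1 of its 3 probe sets, a dimmer one, differed by 0.49 (95% interval -0.17 to 1.15). Pfkm differed by 0.05 (-0.13 to 0.24). The Pfkm minus Pfkl balance differed by 0.14 and that of Pfkp minus Pfkl by -0.000978, with exact permutation p of 0.6 and 1.

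Aldolases split fructose 1,6-bisphosphate, Aldoa in most tissues and Aldoc in brain and glia. Aldoa differed by -0.08 (-0.28 to 0.13), and its 5 probe sets ran from -0.13 to 0.12 with 2 positive. Aldoc was at 15.92, 15.87 and 15.86 in diabetic and at 15.83 and 15.84 in control pools. The diabetic pools all lay above the controls, by as little as 0.01, with a difference of 0.05 (-0.09 to 0.19). A second Aldoc probe set below the filter was at 9.15, 9.38 and 9.29 in diabetic and 8.60 and 8.69 in control pools, a difference of 0.63 that was not tested. Its groups lay further apart than those of the bright probe set, and with single arrays left out it stayed between 0.58 and 0.69. Tpi1, which interconverts the resulting triose phosphates, differed by 0.000613 (-0.18 to 0.18), and its 3 probe sets by at most 0.00513.

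In lower glycolysis, differences at the brightest probe sets of the tested members lay between -0.04 and 0.09. Pgk1 encodes phosphoglycerate kinase, the first enzyme of the pathway to make ATP. Its brightest probe set was at 15.72, 15.60 and 15.65 in diabetic and 15.60 and 15.53 in control pools. A second was at 15.54, 15.62 and 15.56 against 15.50 and 15.48, and another at 14.17, 14.05 and 14.14 against 13.98 and 13.97. In all 3 probe sets each diabetic pool was above both controls, although diabetic replicate 2 and control replicate 1 nearly met in the first. Over all tested probe sets the groups did not overlap in 17.2%. The differences were 0.09 (95% interval -0.07 to 0.26), 0.09 (-0.07 to 0.24) and 0.14 (-0.04 to 0.33) on the probe set fit, and none passed. They remained positive with each single array left out and under quantile normalization and median centring. The probe sets read the same RNA and are not replicates.

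Gapdh, which oxidises glyceraldehyde 3-phosphate, was read by its 3' control probe set at 16.64, 16.50 and 16.64 in diabetic and 16.61 and 16.46 in control pools. Diabetic replicate 2 and control replicate 2 were the lower pools. The difference was 0.06 (exact permutation p = 0.5), and the middle and 5' probe sets differed by 0.03 and 0.02 (exact permutation p = 0.8 and 0.9). Pgam1, phosphoglycerate mutase, differed by -0.04 (95% interval -0.19 to 0.10). Eno2, the enolase of neurons, differed by 0.01 (-0.13 to 0.16). Pkm, which makes pyruvate and whose M1 and M2 splice forms the annotation does not separate, differed by 0.05 (-0.11 to 0.22).

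At the lactate step, 4 of 5 tested members had positive differences, against 51.9% of all tested genes, and none passed the test. The signs of Slc16a1 and Slc16a3 turned without control replicate 1. All 4 probe sets of Ldhb had positive differences, against 48.8% of all tested probe sets, and none passed. They read the same RNA and are not replicates. Each was highest in diabetic replicate 2, the pool with the highest beta-actin ratio, whose part in this was not tested. Ldha and Ldhb encode the subunits of lactate dehydrogenase, of which the LDHA form is known for favouring lactate production and the LDHB form for lactate use. The brightest Ldhb probe set was at 13.89, 14.18 and 13.90 in diabetic and 13.78 and 13.89 in control pools. Diabetic replicate 2 stood above the rest, while diabetic replicates 1 and 3 lay barely above control replicate 2. Its difference was 0.16 (SE 0.11, 95% interval -0.09 to 0.40), or 1.12-fold, and between 0.06 and 0.21 with single arrays left out. Another probe set was at 13.73, 13.96 and 13.90 against 13.50 and 13.63, with a wider gap between the groups and a difference of 0.29 (95% interval 0.07 to 0.52). On the probe set fit its limma p was 0.0173 unadjusted and its adjusted p was 1.00. The remaining pair of probe sets differed by 0.27 and 0.16 with overlapping groups.

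Ldha was at 16.14, 15.93 and 16.06 in diabetic and 15.96 and 15.96 in control pools. The controls were nearly equal and lay inside the diabetic range, with a difference of 0.08 (-0.10 to 0.25). The Ldhb minus Ldha balance differed by 0.08 (exact permutation p = 0.9), and was -0.07 without diabetic replicate 2.

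**Figure D3:**
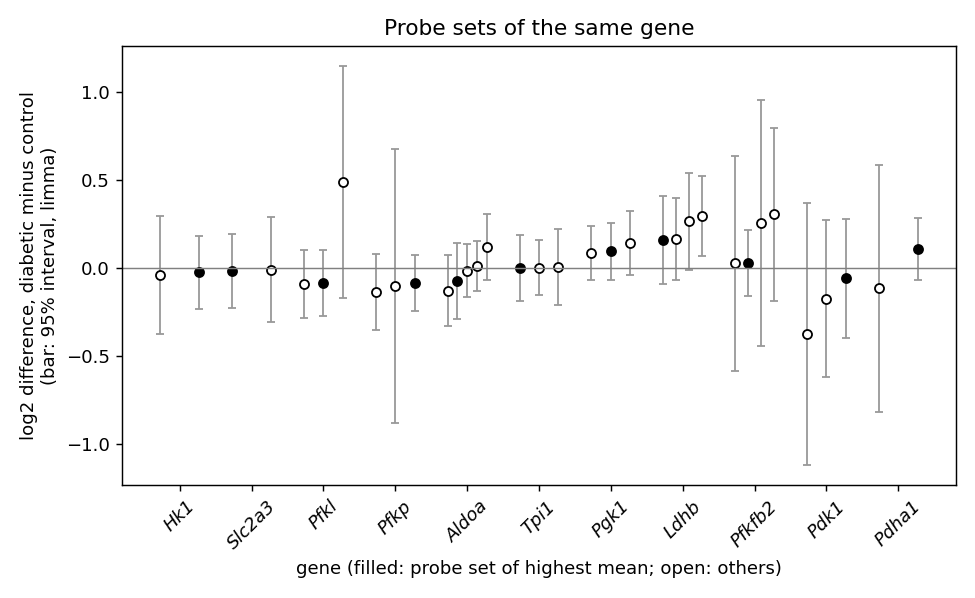
The log2 difference, diabetic minus control, of each tested probe set (vertical axis) for the 11 genes with over 1 of them, with bars for the 95% interval from limma and filled points for the brightest probe set. The 4 Ldhb probe sets lie between 0.16 and 0.29 and the 3 of Pgk1 between 0.09 and 0.14, while those of Aldoa, Pfkl and Pdha1 lie on both sides of 0.

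Over the pathway, 50 member probe sets were above the filter on probe sets. Of these, 29 were positive, against 48.8% of all tested probe sets, and 2 had an unadjusted p under 0.05, against 2.76%. None passed the adjusted threshold, as for 0% of all 20967. The groups did not overlap in 11 of 50, or 22.0%, against 17.2%. Of the 11 genes with more than 1 tested probe set, 4 were positive in all, 4 were negative in all and 3 were mixed.

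Monocarboxylate transporters carry lactate and pyruvate across membranes together with a proton, and Bsg encodes basigin, the chaperone that brings them to the surface. Slc16a1, the widespread MCT1, differed by 0.00948 (-0.18 to 0.20), and Bsg by -0.05 (-0.22 to 0.12). A dim second probe set of Slc16a1, below the filter and not tested, was at 9.16, 8.87 and 8.85 in diabetic and 8.63 and 8.22 in control pools. There every diabetic pool was above both controls. Among probe sets above the filter the groups did not overlap in 17.2%. The groups overlapped in the dim, untested probe sets of Slc2a3, Pdhb and Pdk1. Slc16a3, the MCT4 of lactate-exporting cells, was at 10.16, 10.34 and 10.16 in diabetic and 9.85 and 10.34 in control pools. Control replicate 1 alone was low, and the difference of 0.13 (-0.33 to 0.59) became -0.12 without it and 0.37 without control replicate 2. Slc16a7, the MCT2 of neurons, was below the filter in every pool, at 7.64, 7.40 and 7.93 in diabetic and 8.25 and 8.80 in control pools. All diabetic pools were below both controls, with signals of 48.7 to 123 against 183 and 326, near the pseudocount. The means were 7.66 ± 0.26 (SD, n = 3) and 8.52 ± 0.39 (SD, n = 2). It was not tested in the reported fit, and without the filter on dim genes its unadjusted limma p was under 0.05 and its adjusted p was not.

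Fructose 2,6-bisphosphate is the strongest activator of phosphofructokinase, and the Pfkfb enzymes make and remove it. Pfkfb3, the form known for high kinase activity and induction by hypoxia, was at 11.10, 11.28 and 11.10 in diabetic and 10.66 and 10.86 in control pools. Every diabetic pool was above both controls. The difference was 0.40 (SE 0.14, 95% interval 0.08 to 0.72), or 1.32-fold, with a limma p of 0.0202 unadjusted and an adjusted p of 0.999. It was between 0.30 and 0.50 with single arrays left out. Its second probe set, below the filter, was at 8.60, 8.52 and 8.65 in diabetic and 8.64 and 8.76 in control pools and had a negative difference of -0.11. With the mean of both probe sets the difference was 0.15. Pfkfb2, the form known from heart, differed by 0.03 (-0.15 to 0.21) and Pfkfb4 by -0.01 (-0.30 to 0.27). All 4 probe sets of Pfkfb2 were positive, from 0.03 to 0.30, against 48.8% of all tested probe sets. The groups overlapped in each, and the probe sets read the same RNA and are not replicates. Without diabetic replicate 1 the brightest differed by -0.00834 and another by -0.16, while the rest stayed positive.

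At the entry to the mitochondrion, differences at the brightest probe sets of the tested members lay between -0.19 and 0.11. Pdha1 and Pdhb encode the subunits of the first enzyme of the pyruvate dehydrogenase complex. Pdha1 was at 13.87, 13.92 and 13.93 in diabetic and 13.80 and 13.79 in control pools, which did not overlap. Its difference was 0.11 (-0.06 to 0.28), while its dimmer probe set differed by -0.11 (-0.81 to 0.58). Pdhb differed by 0.07 (-0.11 to 0.24) and Mpc1, a subunit of the pyruvate carrier, by -0.07 (-0.28 to 0.14).

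Pyruvate dehydrogenase kinases switch the complex off. Pdk1, a target of hypoxia-inducible factor, differed by -0.06 (-0.38 to 0.27) and Pdk3 by 0.05 (-0.30 to 0.41). All 3 tested probe sets of Pdk1 had negative differences, from -0.37 to -0.06, against 10742 of all 20967 tested probe sets. The groups overlapped in each, and the probe sets read the same RNA and are not replicates. The brightest differed by 0.05 without diabetic replicate 2. Pdk2 was at 11.37, 11.70 and 11.91 in diabetic and 11.70 and 12.00 in control pools, a difference of -0.19 (-0.58 to 0.20) that shrank to -0.05 when diabetic replicate 1 was left out and to -0.04 when control replicate 2 was. Pdk2 was the only tested member with its 2 highest levels in both pools of high muscle signal, or 1 of 27, against 8.12% of all tested genes. Pdk4, a kinase of fasting and fat use that is plentiful in muscle, was at 8.88, 7.98 and 10.11 in diabetic and 7.77 and 8.58 in control pools. It was above the filter level of 9.70 in diabetic replicate 3 alone, which had the highest muscle signal. Diabetic replicate 1, with low muscle signal, came next and control replicate 2 after it, both below the filter level. The part of muscle RNA in the Pdk4 values was not tested.

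Isozymes of the same steps from other tissues were read in the same way. Hk3, of blood cells, and the testis forms Pgk2 and Ldhc were below the filter level in every pool, as was Fbp2. Pklr, of liver and red cells, was above it in control replicate 1 alone and Slc2a4, the insulin-responsive transporter of muscle and fat, in diabetic replicate 3 alone. Gapdhs, the sperm form, was between 9.97 and 10.44. The muscle enolase Eno3 was at 13.01 in diabetic replicate 3 and 12.56 in control replicate 2, and between 11.72 and 11.80 in the other pools. Pgam2, the muscle mutase, was at 10.90 and 10.29 in the same 2 pools and between 7.55 and 8.08 elsewhere. Pygm, muscle glycogen phosphorylase, did not share that order, at 12.83 and 12.74 in those pools and 12.49 to 12.87 in the others. Of the members, Pfkm had its highest level in diabetic replicate 3, at 13.73, with the other pools between 13.59 and 13.70.

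**Figure D4:**
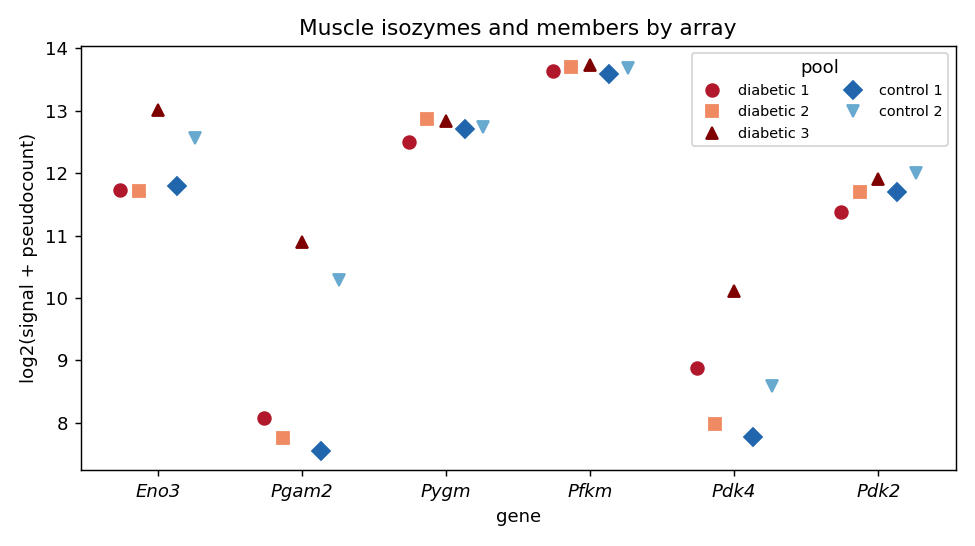
Levels on the log2 scale (vertical axis) in each pool of 3 muscle isozymes (Eno3, Pgam2, Pygm) and 3 members (Pfkm, Pdk4, Pdk2), with red and orange for diabetic and blue for control pools. Eno3 and Pgam2 are highest in diabetic replicate 3 and control replicate 2, while the 5 values of Pfkm lie between 13.59 and 13.73.

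Of 67 further genes of the pathway and its branches, the isozymes just named included, 49 were tested and none passed (limma adjusted p = 0.999 for each). There were 30 positive and 19 negative differences, with a median of 0.02, and 2 had an unadjusted p under 0.05. These 2 of 49 stand beside 3.39% of all tested genes. The groups did not overlap in 13 of 49, or 26.5%, against 18.1%. Slc16a8, the MCT3 of the pigment epithelium, was at 9.89, 10.24 and 10.13 in diabetic and 10.98 and 11.48 in control pools. It differed by -1.14 (95% interval -1.60 to -0.69) and by -0.89 without control replicate 2, in the same pools whose pigment epithelium signals were lower, and the part of that tissue was not tested. Gbe1, the glycogen branching enzyme, was at 11.64, 11.73 and 11.62 against 11.13 and 11.25, a difference of 0.48 (0.21 to 0.74) that stayed between 0.41 and 0.54 with single arrays left out. The next by p were Mdh2, mitochondrial malate dehydrogenase, at 0.14 (-0.00310 to 0.28), and Slc25a12, an aspartate and glutamate carrier of the malate shuttle, at 0.20 (-0.01 to 0.41). They were followed by Slc2a12, a glucose transporter gene, at -0.38 (-0.79 to 0.04), and Tigar, a phosphatase that lowers fructose 2,6-bisphosphate, at 0.22 (-0.05 to 0.48). The groups did not overlap in these 6 genes, but choosing genes by small p favours this, so it adds nothing to the choice.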

How the data were processed

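RNA of 5 pools of mouse retina was measured on Affymetrix arrays (3 diabetic, 2 control), grouped by the sample titles. The authors deposited signal intensities on a linear scale, 1 per probe set. Without the lowest and highest 2% of values, each column had a mean of 2500.01. How probes were summarized and background removed is not given in the sources used here, which bears most on low signals.

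There were 34945 probe sets with 1 symbol, and symbols were updated by Entrez ID through RefSeq genes of GRCm38.p6 for 34741 of them. Signals were taken as log2(signal + 120.6), and array medians differed by 0.15 on that scale. The 10916 genes in the upper 60% were fitted with limma 3.58.1 in R 4.3.3 (lmFit, eBayes with a trend, 3 residual degrees of freedom) and adjusted by Benjamini-Hochberg over all of them. The same was done for 20967 probe sets. Isozyme balances were compared by exact permutation over the arrays. The fit was tested on simulated data. Control probe sets, probe sets with several symbols (4 of them naming a member) and probe sets without a symbol were not fitted.

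All members were named. Of the further list, the 6 of smallest p were named. The members and lists were chosen with earlier results of these data known. Pools are separate samples of mice, so a p-value sets the group difference against the spread between pools. The limma fits moderate that spread over all fitted genes or probe sets, and the number of arrays limits the precision. Plots were made with matplotlib 3.10.9.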

Additional observations from a re-analysis of the deposited data

Results flagged for a closer look

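Control probe sets for Gapdh gave a signal ratio outside the comparison of the groups. In diabetic replicate 2 the ratio of 3' to 5' signal was 0.901, or 1.10 times that of the higher control pool, where the controls were at 0.822 and 0.811. The same pool had the highest beta-actin ratio.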

How the results depend on the processing

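No member passed an adjusted p of 0.05 under any of the 15 alternatives run, and 0 of 9 isozyme balances did under those run for them, where the small number of arrangements allows no call. The number of members with an unadjusted p under 0.05 was 1 in the reported fit, 2 without the filter on dim genes (Pfkfb3 and Slc16a7), 0 in the upper 40% of genes, where Pfkfb3 was filtered out, 2 with the mean over probe sets (Aldoc and Slc16a1), and 0 to 1 with single arrays left out (0 without diabetic replicate 2 or control replicate 1). The median over members, 0.01 as reported, was 0.0577 with array medians centred, where that of all genes was 0.0488, 0.0542 with the mean over probe sets and 0.0551 without both arrays of high muscle signal, and the causes were not tested. Signs turned in 3 members under quantile normalization (Pfkfb4, Slc16a1, Tpi1), 3 under centring (Hk1, Pfkfb4, Slc2a3), 3 with the mean over probe sets (Pdha1, Pfkl, Slc2a3) and 1 to 6 with single arrays left out, most of them without diabetic replicate 1. Titles share replicate numbers, and the deviations of same-numbered arrays from their group means correlated at 0.13 and -0.14. With 2 control pools these deviations are mirror images of each other, so the check cannot decide on pairing. With the replicate block, 0 members passed and the median was 0.04. Fits without a control replicate leave 1 control array, which is assumed to vary like the others. Low signals limit Slc16a7, Pdk4 and the dim probe sets.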
